A study of Mus musculus with 13 samples.

Results

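The transcriptome described here is that of the liver of 4 male B6C3F1 mice that drank deionized water throughout and received no chemical. B6C3F1 is the first-generation hybrid of the C57BL/6 and C3H strains and is widely used in tests for carcinogens, partly because liver tumours are common in its ageing males. The 4 mice were the controls of a study of 13 mice whose other groups received, from an age of 7 days, dichloroacetic acid at 3.5 g/L (4 mice) or phenobarbital at 0.06% (5 mice) for 10 weeks and then water for 90 weeks. All samples carry the age label of 7 days, which the design text uses for the start of treatment. About 20 mg of archived frozen liver per animal was used, 1 Illumina bead array was run per mouse, and the labels give neither an hour of collection nor the histology of the pieces. The mice are called mouse 1 to mouse 4, in an order that carries no meaning.

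A gene was included when its detection p-value was under 0.05 on all 4 control arrays, which held for 6076 of 18138 genes (33.5%). A further 8943 genes were detected on none of the 4 arrays, and 3119 were detected on 1 to 3 of them. Just inside the threshold lay Trim32 and Zfp212, with highest detection p-values of 0.0499 and 0.0495, and just outside lay 1500019C06Rik and Avil at 0.0501. Signals are log2 intensities after background correction and quantile normalization, on a scale where the median gene detected on no array lay at 4.37 and the median included gene between 7.15 and 7.18. The signal of a probe depends on how well it hybridises as well as on the amount of RNA, so a ranking of signals is a ranking of probes, and comparisons between mice are made within a gene. The spread of a gene is given as the SD over the 4 mice and as its range, the highest minus the lowest mouse. A range over 1 is a difference of more than 2-fold. With 1 group there is no test between groups, and the number of arrays limits the precision of every SD.

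Hepatocytes, the main cells of the liver, secrete most proteins of blood plasma, make bile acids and urea, store and release glucose and clear drugs. They do not all do the same work. Those around the central vein carry out drug oxidation and glutamine synthesis, and those around the portal vein make urea and glucose. Many of these genes also follow the time of day, feeding, inflammation and, in rodents, the sex-specific pattern of growth hormone release, so they are known to vary between animals of one strain.

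Markers of the labelled tissue, sex and age were looked up first. Of 9 hepatocyte markers 8 were detected in all mice, among them Ttr, the carrier of thyroxine and retinol-binding protein, at 13.81, 13.94, 13.87 and 13.87, and Hnf4a, a master regulator of hepatocyte genes, at 10.81, 10.48, 10.45 and 11.05. The exception was Alb, for albumin, whose row stood at 4.47, 4.38, 4.77 and 4.46 and was detected in mouse 3 alone. The albumin row was therefore at background in a tissue known for making albumin, and a row that is not detected here does not show that the gene is silent. Of 13 genes of neonatal liver in the table, 0 were detected in all 4 mice and 10 in none. Igf2, the fetal growth factor, was at 4.64, 4.74, 4.83 and 6.55, which is above background in mouse 4. Eif2s3y, a translation factor gene on the Y chromosome, was detected in all mice at 7.74, 8.26, 8.63 and 8.62, and Xist, the RNA of the inactive X, was detected in none. Of 5 sex marker genes in the table, Eif2s3y alone was detected in all mice. In mice 1 to 4 the numbers detected were 3, 2, 4 and 1. Of 11 skeletal muscle genes 0 were detected on any array, and of 16 genes of pancreas and gut 1 was detected in all mice, the elastase Ela1 at 8.84, 9.67, 9.25 and 7.85.

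Secreted proteins filled the top of the ranking. The 20 included genes with the highest mean signal were Serpina1b, Serpina1e, Apoa2, Apoc3, Apoa1, Mt1, Serpina1d, Apoc1, Ambp, Mup3, Mup1, Mat1a, Ttr, C3, Aldh2, Vtn, Serpina1c, Fga, Fth1 and Cyp2e1. They comprise protease inhibitors of the alpha-1-antitrypsin family, apolipoproteins, the urinary pheromone carriers Mup1 and Mup3, complement C3, the clotting protein fibrinogen alpha, the metal-binding metallothionein Mt1 and the iron store Fth1. Mat1a makes the methyl donor S-adenosylmethionine, Aldh2 oxidises acetaldehyde and Cyp2e1 oxidises ethanol. The Serpina1 and Mup families are near-identical copies that probes may not tell apart, so single members of them are uncertain. Quantile normalization gives all arrays the same set of values, so the brightest genes exchange a small number of top values between mice and their ranges are confined.

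Some very bright genes were even. Fga stood at 13.61, 13.72, 13.66 and 13.64 with an SD of 0.046, Ttr had an SD of 0.055, and the urinary proteins Mup3 and Mup1 had SDs of 0.071 and 0.18. Others were not. Trf, the iron carrier transferrin, was at 14.30, 13.36, 12.98 and 12.30, a 4.01-fold difference between mice 1 and 4. Gpx1, the main cytosolic glutathione peroxidase, was at 14.45, 13.29, 12.80 and 12.29. In both genes mouse 1 was the highest and mouse 4 the lowest. Of 14 plasma carrier proteins 4 had a range over 1, or 2 without mouse 4, and of 12 apolipoproteins 3, or 1 without mouse 1. These shares, 28.6% and 25%, are near the 21.9% of all included genes. Of 26 complement and coagulation genes 2 (7.69%) did, and their median SD was 0.241 against 0.287 for all included genes. Without mouse 1 that count was 0 and without mouse 2 it was 1.

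Across all included genes the median SD was 0.287 (quartiles 0.191 and 0.418) and the median gene differed 1.56-fold between its highest and its lowest mouse. A range over 1 was found for 1332 genes (21.9%), and a range over 2, which is 4-fold, for 139. The share with a range over 1 was 5.11% in the dimmest 10% of genes, highest at 28.9% in the 10% with mean signals of 6.22 to 6.66, and 18.3% in the brightest 10%. The count depends on the processing. It was 459 without background correction, 784 with the standard background fit, 500 in the authors' normalized table and 3725 where arrays were scaled by their median. Under that median scaling the median gene itself was shifted by 0.30, -0.31, 0.41 and -0.42 in mice 1 to 4, so orders of the mice given below were also looked up after centring every array on its median included gene.

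**Figure D1:**
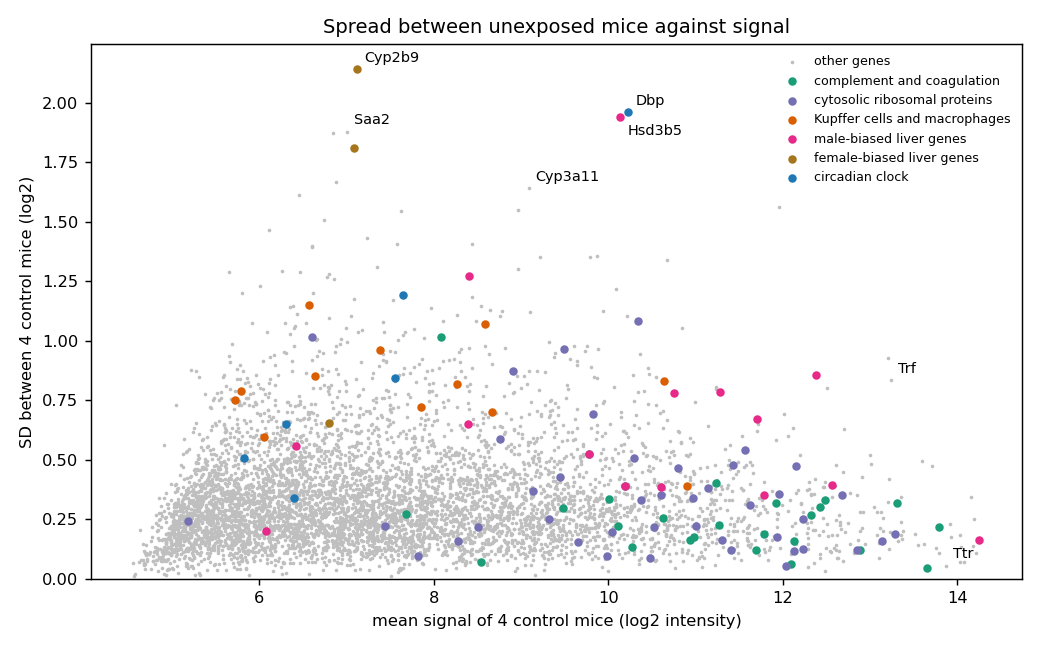
SD between the 4 control mice (vertical axis, log2) against mean signal (horizontal axis, log2 intensity) for the 6076 included genes, 1 point per gene, with 6 gene lists in colour. Cyp2b9 has the largest SD at 2.14, Dbp (1.96) and Hsd3b5 (1.94) follow at high signal, and Ttr, at the right edge, has an SD of 0.055.

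Mice 1 and 4 were the farthest apart. Their signals correlated across genes with a Pearson r of 0.935, and 808 genes (13.3%) differed more than 2-fold between them. Mice 2 and 3 were the closest, with an r of 0.971 and 238 genes (3.92%) more than 2-fold apart. Genes are not independent replicates, so these correlations are descriptions. Of the 1332 genes with a range over 1, 343 were highest in mouse 1 and lowest in mouse 4, and 239 were highest in mouse 4 and lowest in mouse 1, together 43.7%. The count of 1332 was 672 without mouse 1 and 776 without mouse 4. Mean raw intensity was 368 in mouse 1, 254 in mouse 2, 388 in mouse 3 and 234 in mouse 4, and between 7200 and 7842 genes were detected per array. Whether the brightness of the arrays has a part in the differences between mice was not tested. Under median scaling 1329 genes were highest in mouse 1 and lowest in mouse 4, and 21 the other way round.

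**Figure D2:**
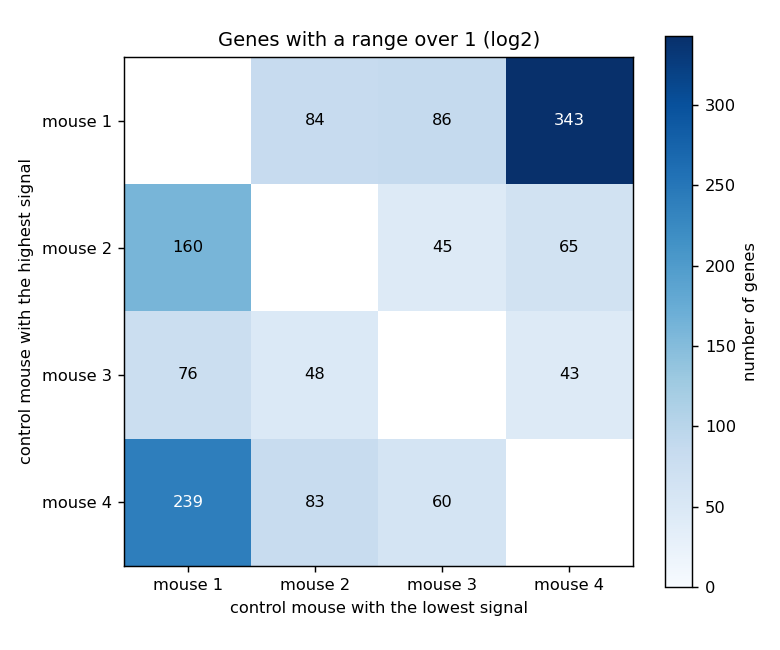
Number of genes with a range over 1 on the log2 scale by the mouse with the highest signal (rows) and the mouse with the lowest (columns). The cells for mouse 1 over mouse 4 (343 genes) and mouse 4 over mouse 1 (239 genes) hold the most genes, and mouse 3 over mouse 4 (43 genes) the fewest.

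A single mouse lay more than 1 away from the nearest of the other 3 for 283 genes (4.66%). Mouse 1 was alone at the top for 94 genes and alone at the bottom for 31. For mouse 2 these counts were 42 and 25, for mouse 3 they were 7 and 5, and for mouse 4 they were 54 and 36, and a gene can be counted on both sides. Mouse 3 thus stood apart least often. Of the 30 genes with the largest SD, 14 (46.7%) belonged to one of the gene lists used here, against 517 of all 6076 included genes (8.51%). The lists were chosen with earlier results of these data known, so this contrast is only a description. These lists and the genes described below follow, group by group. Counts of list members with a range over 1 are to be read beside the 21.9% of all included genes. Counts without 1 mouse fall for all genes too. The 1332 became 672, 1056, 1163 and 776 without mice 1, 2, 3 and 4. Here genes had to be detected only on the remaining arrays, which held for 6233, 6332, 6195 and 6453 genes. List counts without 1 mouse keep the genes detected on all 4 arrays, so the sets of genes differ.

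At the other end, some genes hardly differed between the mice. Among genes of above-median signal the smallest SD was that of BC017158, at 7.51, 7.52, 7.52 and 7.50. Trim28, a co-repressor that silences transposons, was at 9.17, 9.14, 9.17 and 9.15, with an SD of 0.015. Park7, whose protein DJ-1 protects against oxidative stress, was at 12.51, 12.50, 12.47 and 12.44. Ppp6c, the catalytic subunit of a phosphatase, had an SD of 0.032, Mocs2, an enzyme of molybdenum cofactor synthesis, one of 0.034, and Aof2, the histone demethylase now called Kdm1a, one of 0.040. The 15 steadiest genes above the median signal also included Ube2q1, Prdm4, Cherp, Setd6 and Clcn7, and their SDs ran from 0.011 to 0.043.

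Genes often used as references for other assays differed among themselves in spread. Of 9 that were detected in all mice, 3 had a range over 1 (33.3%, against 21.9% of all included genes), and without mouse 1 there were 0. Their median SD was 0.263, against 0.287 for all included genes. Actb, for beta-actin, was at 10.95, 11.99, 11.04 and 11.51, highest in mouse 2. Ppia, a prolyl isomerase, was at 12.003, 11.609, 11.290 and 10.672, and Eef2, the elongation factor of translation, at 6.97, 5.54, 5.08 and 5.40, both highest in mouse 1. Gapdh, a glycolytic enzyme, was at 11.59, 11.36, 11.35 and 11.59, Rpl13a, a ribosomal protein, at 8.20, 8.40, 8.10 and 8.43, and Eif3f, an initiation factor, at 11.47, 11.63, 11.46 and 11.53. These last 3 genes had ranges of 0.25, 0.33 and 0.18. B2m and Eef1a1 failed the detection rule in 1 mouse each in spite of mean raw intensities of 5521 and 7812, and detection p-values of genes with several probes are combined in the table. In all, 175 genes brighter than 300 on the raw scale, on average, did not enter, among them Cyp4a14, which was at background in mouse 2.

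Genes that differ between male and female mouse liver were among the most variable of all, although all 4 mice were labelled male. In mice, continuous growth hormone release feminises and pulsatile release masculinises the liver. Hsd3b5, a steroid-metabolising enzyme of male liver, was at 7.57, 11.65, 11.62 and 9.70, a 17.0-fold difference. Cyp4a12b, a male-biased fatty acid hydroxylase, was at 6.90, 9.14, 9.73 and 7.86, and Cyp2d9, a male-biased steroid hydroxylase, at 11.331, 12.998, 13.161 and 12.043. In each of them mouse 1 was lowest, mouse 4 next, and mice 2 and 3 were high. OTTMUSG00000000231, a gene without a current symbol in the name table, had the same order at 9.89, 13.01, 13.29 and 11.61. Selenbp2, a selenium-binding protein, was at 9.64, 11.28, 11.32 and 10.76.

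The female-biased genes detected in every mouse ran the other way. Cyp2b9, a female-biased P450, was at 9.76, 5.53, 5.24 and 7.96, the largest SD of any included gene at 2.14. Cyp17a1, a steroid hydroxylase, was at 9.09, 5.42, 5.70 and 8.13. Acot4, a peroxisomal thioesterase, was at 7.31, 5.89, 6.74 and 7.24. Mice 1 and 4 were above mice 2 and 3 in all 3 of these genes, which were all of the 3 female-biased genes detected in every mouse, of 16 in the table, and each had a range over 1. Some genes that missed detection in at least 1 mouse had a like order, and others did not. Cux2, a female-specific repressor, was at 6.34, 4.38, 4.44 and 8.08, and A1bg at 6.43, 4.58, 4.46 and 6.67. Mice 2 and 3 were at background in both of them. Prom1, near background, was highest in mouse 2 at 4.78, 4.92, 4.40 and 4.84. Fmo2, also near background, was lowest in mouse 4 at 4.80, 4.64, 4.59 and 4.43. Of the 16 female-biased genes 5 were detected in no mouse. The male-biased Elovl3, an elongase of very long fatty acids, was at 4.52, 8.20, 6.31 and 5.31, at background in mouse 1.

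Of 15 male-biased genes detected in all mice 9 had a range over 1 (60%, against 21.9% of all included genes). Their mean lay 0.45 below the 4-mouse mean in mouse 1 and 0.43 below it in mouse 4, and 0.44 above it in each of mice 2 and 3; which of mice 2 and 3 was higher changed with the processing. Not every member took part. Of the 15, 3 were highest in mouse 1, among them Cyp2f2 at 12.21, 11.75, 11.83 and 11.35 and Serpina3k at 6.35, 5.97, 5.90 and 6.09. Serpina1e had a range of 0.40. Mup1, Mup2 and Mup3, male-biased genes of another list, had ranges of 0.43, 0.40 and 0.17. Mup4 and Mup5 of that list, which met the detection rule in no mouse, had ranges of 1.77 and 1.95 and were lowest in mouse 4. Bcl6, a repressor that is higher in male liver, was at 6.17, 7.91, 9.06 and 7.52, lowest in mouse 1. The peroxisome proliferator target Cyp4a14 was at 10.27, 4.47, 6.28 and 9.68 and missed detection in mouse 2, and Cyp4a31, of the same P450 cluster, was at 9.19, 4.80, 6.06 and 7.35. Both were highest in mouse 1 and lowest in mouse 2.

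**Figure D3:**
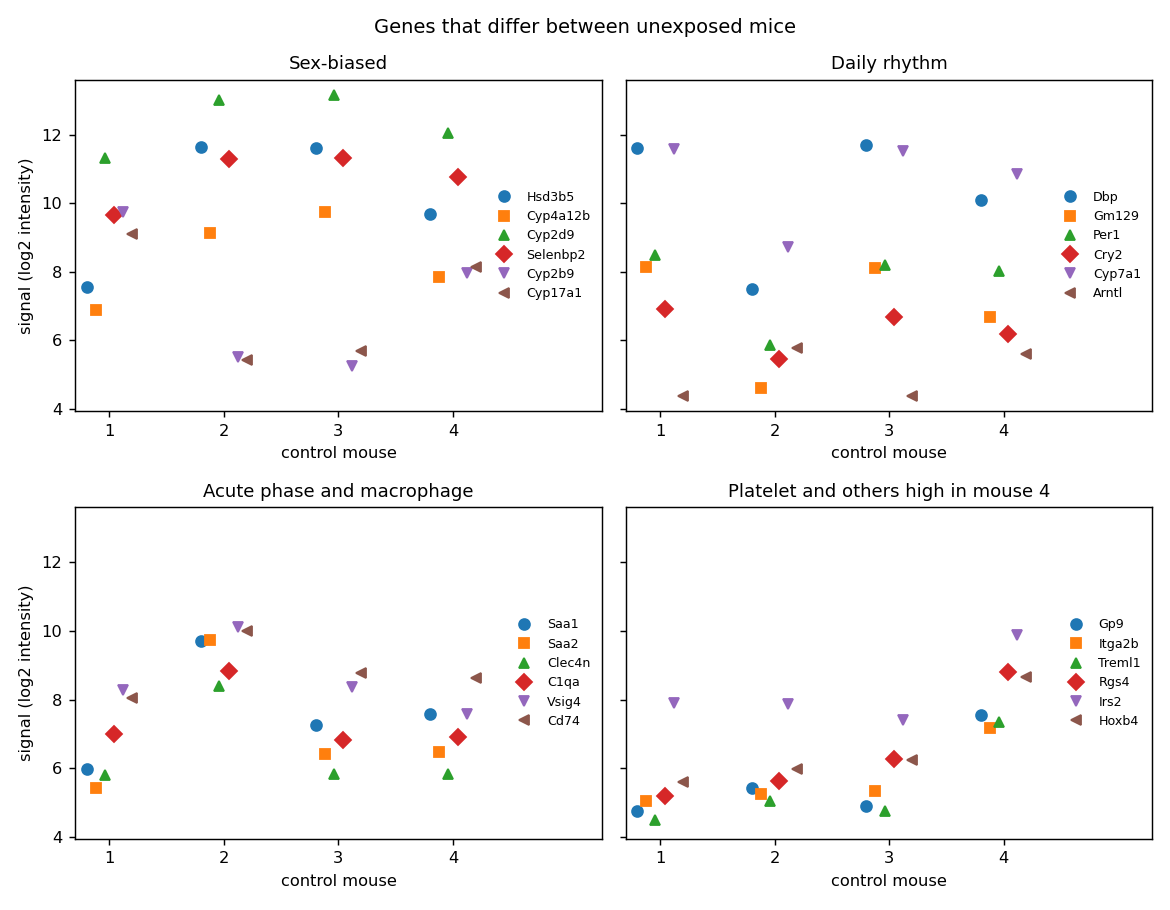
Signal (vertical axis, log2 intensity) of 24 genes in each of the 4 control mice, 1 point per gene and mouse, in 4 panels. Sex-biased genes place mice 1 and 4 against mice 2 and 3, rhythm genes other than Arntl are lowest in mouse 2, acute phase and macrophage genes are highest in mouse 2, and platelet genes are highest in mouse 4.

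Genes of the daily clock set mouse 2 apart. The clock is a feedback loop in which the activators Bmal1 (Arntl) and Clock bind E-boxes, with the letters CACGTG, in promoters of the repressor genes Per and Cry and of output factors such as Dbp. Dbp, which drives rhythmic liver enzymes, was at 11.61, 7.50, 11.69 and 10.09, an 18.3-fold difference. Gm129, the clock repressor now named Ciart, was at 8.14, 4.61, 8.12 and 6.67, and Per1 at 8.49, 5.88, 8.19 and 8.03. In all 3 genes mouse 2 was the lowest, and in Dbp and Gm129 mouse 4 lay between it and the others. Cry2 was at 6.92, 5.46, 6.69 and 6.18, Nr1d1, the repressor Rev-erb alpha, at 6.35, 5.14, 5.84 and 5.99, and Per2 at 7.71, 6.75, 8.67 and 7.09.

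Mouse 2 was lowest in all 6 clock genes detected in every mouse. Of the 6, 5 (83.3%) had a range over 1, or 2 without mouse 2. Arntl ran against them at 4.38, 5.78, 4.38 and 5.61, at background in mice 1 and 3. Usp2, a deubiquitinase with a rhythm in liver, was at 8.81, 4.73, 8.82 and 7.26, and Tef, a relative of Dbp, at 9.38, 7.62, 9.41 and 9.11. Neither met the detection rule in all mice. Several outputs of the clock or of feeding were also lowest in mouse 2. Cyp7a1, the rate-limiting enzyme of bile acid synthesis, was at 11.58, 8.73, 11.53 and 10.86. Upp2, a uridine phosphorylase, was at 10.04, 7.22, 9.87 and 8.72, and Mfsd2, the lipid transporter Mfsd2a, at 11.17, 8.05, 9.70 and 10.57. Angptl4, an inhibitor of lipoprotein lipase that rises in fasting, was at 10.27, 8.16, 10.11 and 9.86, and Mt2, a metallothionein, at 8.75, 6.29, 7.92 and 8.12. Fatty acid oxidation genes had their lowest list mean in mouse 2, 0.30 below the 4-mouse mean, and 4 of 16 had a range over 1 (25%, near the 21.9% of all included genes), or 2 without mouse 1 and 1 without mouse 2.

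The promoters of 2 clock genes that hold an E-box are shown because their RNAs were lowest together in mouse 2. Sequences are from RefSeq on GRCm38.p6, 300 bases each, most of them before the annotated start, 5′ to 3′ on the strand of the gene, with E-boxes in capitals. The Ciart window is chr3:95882179-95882478, minus strand, and holds 3 matches, which begin 116, 58 and 44 bases before the start. The Per1 window is that of the upstream of 2 starts, chr11:69098699-69098998, plus strand, with 1 match that begins 166 bases before the start.
Ciart: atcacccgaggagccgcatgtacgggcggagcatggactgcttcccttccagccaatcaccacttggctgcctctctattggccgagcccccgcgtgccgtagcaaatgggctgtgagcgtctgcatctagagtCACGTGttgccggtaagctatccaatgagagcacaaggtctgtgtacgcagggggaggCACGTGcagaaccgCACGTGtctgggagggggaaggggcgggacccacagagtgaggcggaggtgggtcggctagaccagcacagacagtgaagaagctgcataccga
Per1: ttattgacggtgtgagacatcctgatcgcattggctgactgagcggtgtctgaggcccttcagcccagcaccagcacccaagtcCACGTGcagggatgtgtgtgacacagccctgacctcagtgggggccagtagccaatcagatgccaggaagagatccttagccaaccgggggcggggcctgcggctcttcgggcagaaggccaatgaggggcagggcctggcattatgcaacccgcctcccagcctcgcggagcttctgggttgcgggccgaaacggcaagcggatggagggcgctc

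Of the 17 clock genes looked up, 15 had a window in the table and 4 had the letters CACGTG, which read the same on both strands, in at least 1 window: Ciart, Per1, Cry1 and Tef. Ciart was added to the clock list for this look-up. Counted in the same way by gene, 2187 of 27025 gene symbols with a window held the letters (8.09%). Counted by window, the letters occurred in 7.15% of all 32851. Among the genes for which mouse 2 was alone at the bottom, 6 of 20 with a window held them, against 612 of 4737 included genes with a window (12.9%). Over the 8 sets of genes with 1 mouse alone at the top or the bottom, the counts ran from 1 of 23 with mouse 1 at the bottom to 2 of 6 with mouse 3 at the top, which is a larger share than that of mouse 2. A match is a description of the letters, and a window without them says nothing of sites elsewhere.

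Mouse 2 had the highest list mean for proteins of the acute phase, the change in hepatocyte secretion that follows inflammation. Saa2, for serum amyloid A, was at 5.41, 9.72, 6.42 and 6.46, a 19.9-fold difference. Saa1 was at 5.98, 9.70, 7.26 and 7.59. In both, mouse 1 was lowest and mouse 2 was more than 2 above each of the other 3 mice. Saa3, the macrophage form, was at 6.70, 8.65, 6.82 and 8.04, and Lcn2, the siderophore-binding lipocalin, at 9.95, 10.49, 7.40 and 9.06. Orm2, an acid glycoprotein, was at 11.55, 12.17, 10.90 and 10.31, and Hp, for haptoglobin, at 13.33, 13.46, 12.39 and 12.88. Of 17 acute phase genes 11 (64.7%) had a range over 1, or 9 without any one of mice 1, 2 and 3 and 8 without mouse 4. Of the 17, 9 were highest in mouse 2 and 6 in mouse 4. The mean of the 17 was 0.58 above the 4-mouse mean in mouse 2. They did not all share that order. Hamp, for the iron hormone hepcidin, was at 12.06, 12.29, 13.09 and 13.38, highest in mouse 4, and Lbp, the lipopolysaccharide-binding protein, was at 9.79, 9.78, 8.73 and 9.65, lowest in mouse 3. Serpina3n stayed between 11.95 and 12.21, and Itih4 had a range of 0.37.

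Saa1 and Saa2 are neighbours on chromosome 7, and their promoter windows are printed to show how alike this pair of genes is. Both are from RefSeq on GRCm38.p6, Saa1 at chr7:46742931-46743230 on the minus strand and Saa2 at chr7:46751583-46751882 on the plus strand. In a global alignment 287 of 301 columns were identical (95.3%), with 12 mismatches and 2 gap columns. Array probes lie in transcripts and not in these windows, and whether the Saa1 and Saa2 signals measure one gene each was not tested.
Saa1: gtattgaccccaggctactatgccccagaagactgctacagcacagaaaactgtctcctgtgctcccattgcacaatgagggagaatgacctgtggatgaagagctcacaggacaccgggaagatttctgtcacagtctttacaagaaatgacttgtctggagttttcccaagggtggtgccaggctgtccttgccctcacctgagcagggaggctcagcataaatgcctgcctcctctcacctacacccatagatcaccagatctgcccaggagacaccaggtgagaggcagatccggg
Saa2: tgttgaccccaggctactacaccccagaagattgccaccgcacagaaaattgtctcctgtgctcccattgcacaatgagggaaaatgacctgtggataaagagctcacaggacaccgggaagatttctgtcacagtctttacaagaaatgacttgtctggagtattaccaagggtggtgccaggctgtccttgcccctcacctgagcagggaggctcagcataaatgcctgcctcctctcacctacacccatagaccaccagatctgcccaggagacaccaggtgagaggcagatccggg

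Macrophage genes had the same outlying mouse. Kupffer cells are the resident macrophages of the liver sinusoids. C1qa, a subunit of complement C1q, was at 6.99, 8.83, 6.82 and 6.91. Vsig4, the complement receptor of Kupffer cells, was at 8.29, 10.10, 8.37 and 7.59, and Clec4f, a Kupffer cell lectin, at 8.08, 9.63, 8.23 and 8.72. Mouse 2 was the highest in each. Of 12 Kupffer cell and macrophage genes 11 (91.7%) had a range over 1 and 11 were highest in mouse 2. Without mouse 2, 2 of the 12 had a range over 1. Their mean was 1.05 above the 4-mouse mean in mouse 2 and between 0.27 and 0.48 below it in the other mice. Slc40a1, the iron exporter ferroportin, was the exception at 10.87, 11.15, 11.24 and 10.37. In a piece of whole liver, more cells of a type and more RNA per cell cannot be told apart.

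Several other genes of myeloid and antigen-presenting cells followed. Clec4n, the lectin Dectin-2, was at 5.79, 8.40, 5.84 and 5.83, Fpr2, a formyl peptide receptor, at 6.35, 9.59, 7.02 and 7.36, and Mmp9, a gelatinase, at 4.99, 7.58, 5.18 and 5.47. In these 3 genes mouse 2 was more than 2 above the next mouse. Cd74, the invariant chain of MHC class II, was at 8.04, 10.00, 8.78 and 8.62. All 7 genes of the MHC class II list were highest in mouse 2. Of the 7, 6 (85.7%) had a range over 1, or 3 without mouse 1 and 2 without mouse 2. Lyz2, a lysozyme, was at 6.54, 7.62, 4.97 and 7.13, lowest in mouse 3. The granule genes S100a8 and S100a9 were high in both mouse 2 and mouse 4, S100a8 at 4.55, 7.47, 5.03 and 7.60 and S100a9 at 4.58, 7.46, 5.36 and 7.77, and were not detected in every mouse. Of 21 genes of T, B and plasma cells 3 were detected in all mice, and of 14 neutrophil genes 2.

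Interferon-induced genes had their highest list mean in mouse 2, 0.19 above the 4-mouse mean, and their lowest in mouse 3, 0.28 below it, the same mice as for the macrophage list. Of the 18 genes detected in all mice 7 were highest in mouse 1, 6 in mouse 2, 1 in mouse 3 and 4 in mouse 4. Rsad2, an antiviral enzyme, was at 7.23, 8.02, 7.08 and 8.87, and Irf7, the regulator of interferon genes, at 8.03, 7.88, 7.42 and 9.12. Both were highest in mouse 4 and lowest in mouse 3. Cxcl9, a chemokine induced by interferon gamma, was at 6.99, 7.29, 5.84 and 7.15. Of the 18 genes 6 had a range over 1 (33.3%, against 21.9% of all included genes), or 3 without mouse 1. Stat2 and Tap1 had ranges of 0.18 and 0.18.

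Several platelet genes were highest in mouse 4. Gp9, a subunit of the von Willebrand receptor of platelets, was at 4.75, 5.43, 4.90 and 7.54, and Itga2b, the platelet integrin, at 5.04, 5.24, 5.33 and 7.16. Treml1, a platelet receptor, was at 4.49, 5.04, 4.76 and 7.34, and Ppbp, a platelet chemokine, at 4.49, 4.52, 4.41 and 7.17, detected in mouse 4 alone. Gp9 and Itga2b were detected in the other mice too, at low signals between 4.75 and 5.43. Treml1 lay between 4.49 and 5.04 in those mice, and Ppbp was at background there. Of 9 platelet genes 2, 4, 4 and 7 were detected in mice 1 to 4. The granule gene Camp, for cathelicidin, was also detected in mouse 4 alone, at 4.40, 4.26, 4.33 and 6.60. Ltf, for lactoferrin, had its highest signal there as well, at 4.36, 4.46, 4.55 and 6.95, but its combined detection p-value was 0.101 in mouse 4 and 0.0308 in mouse 3, so that by the detection rule it counted as detected in mouse 3 alone. Cxcl4, for platelet factor 4, was high in mouse 4 and mouse 2, at 4.55, 6.78, 4.58 and 7.62. Haemoglobin did not mark mouse 4 alone, since Hba-a1 was at 13.20, 12.79, 12.38 and 13.04 and Hbb-b1 at 7.82, 8.15, 7.45 and 8.70. Alas2, the first enzyme of haem synthesis in red cells, was at 9.37, 11.17, 11.18 and 10.09. Of 8 erythroid genes 4 (50%) had a range over 1, or 3 without mouse 3 and 1 without mouse 4. Whether blood cells have a part in the other differences of mouse 4 was not tested.

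Mouse 4 was also alone at the top for genes of other kinds. Rgs4, an inhibitor of G protein signalling, was at 5.19, 5.61, 6.25 and 8.79, and Hoxb4, a homeobox factor, at 5.58, 5.97, 6.23 and 8.66. Irs2, the insulin receptor substrate of the fasted liver, was at 7.91, 7.86, 7.41 and 9.89, and Rhbdl2, a rhomboid protease, at 9.33, 9.31, 9.12 and 11.16. In each of these genes mouse 4 was more than 1 above the next mouse. Spon2, an extracellular matrix protein, was high in mice 2 and 4, at 7.46, 10.11, 7.81 and 10.47, as were Gadd45g, a stress-induced gene, at 9.26, 10.67, 8.14 and 11.10, and Cdkn1a, the cell cycle inhibitor p21, at 4.97, 7.23, 4.93 and 6.90. Of 22 oncofetal and tumour-associated genes 6 were detected in all mice. Of the 6, 3 were highest in mouse 2, 2 in mouse 3 and 1 in mouse 4, and their mean deviation in mouse 4 was -0.08. Igf2, Tff3 and Spink3, which were not detected in all mice, had their highest signal in mouse 4, at 6.55, 6.05 and 6.05. Proliferation genes were near background, with 7 of 29 detected in all mice and 18 in none.

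Cholesterol synthesis was lowest in mouse 4. Fdps, which makes farnesyl diphosphate, was at 10.89, 11.14, 10.42 and 9.02, Sc4mol, a sterol oxidase now named Msmo1, at 9.06, 8.76, 8.81 and 7.13, and Mvd, which makes isopentenyl diphosphate, at 6.45, 7.54, 6.08 and 5.46. Mouse 4 was the lowest of the 4 in 13 of the 15 genes detected in all mice. Of the 15, 9 (60%) had a range over 1, or 5 without mouse 2 and 3 without mouse 4. Sqle, the squalene oxidase, was at 7.08, 6.79, 5.16 and 4.45, detected in mice 1 and 2.

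Genes of the central vein were low in the same mouse. Gulo, the last enzyme of vitamin C synthesis, was at 11.11, 10.64, 10.26 and 9.11. Oat, an ornithine aminotransferase, was at 13.12, 13.05, 12.45 and 11.39, Cyp1a2 at 11.27, 11.48, 11.62 and 10.21, and Glul, the glutamine synthetase, at 5.92, 6.02, 6.51 and 5.28. Mouse 4 was the lowest in 10 of the 12 pericentral genes detected in all mice, and their mean was 0.68 below the 4-mouse mean there. Of the 12, 7 (58.3%) had a range over 1, or 1 without mouse 4. Periportal genes did not share this order. Sds, a serine dehydratase, was at 12.11, 10.61, 10.52 and 11.71, and Hal, which breaks down histidine, at 10.32, 10.97, 10.34 and 11.62. Asl, of the urea cycle, was at 8.15, 5.31, 5.60 and 5.98, and Cps1, the entry enzyme of that cycle, at 11.81, 10.19, 9.99 and 10.22, both with mouse 1 alone at the top. Of 15 periportal genes 8 (53.3%) had a range over 1, or 5 without mouse 1 or without mouse 4. Of 16 genes of the urea cycle and amino acids 9 (56%) did, or 5 without either of those mice.

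Genes of the unfolded protein response, many of them chaperones of the endoplasmic reticulum, had their lowest list mean in mouse 4, 0.40 below the 4-mouse mean, but mouse 4 was the lowest in only 5 of the 14 genes detected in all mice. Mouse 3 was the lowest in 4, mouse 1 in 3 and mouse 2 in 2. Calr, for calreticulin, was at 7.71, 7.84, 6.43 and 5.77, Pdia4, a disulfide isomerase, at 8.98, 9.12, 8.20 and 7.35, and Pdia3, another, at 10.15, 9.92, 9.56 and 8.44. In these 3 genes mice 1 and 2 were above mice 3 and 4. Hyou1, another chaperone, was at 6.24, 5.75, 5.31 and 5.57, lowest in mouse 3. Of the 14 genes 9 (64.3%) had a range over 1, or 4 without mouse 4. Ddit3, the pro-apoptotic factor CHOP, went the other way at 6.69, 7.13, 6.57 and 7.74. Hsp90b1 and Atf4 had ranges of 0.44 and 0.29.

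**Figure D4:**
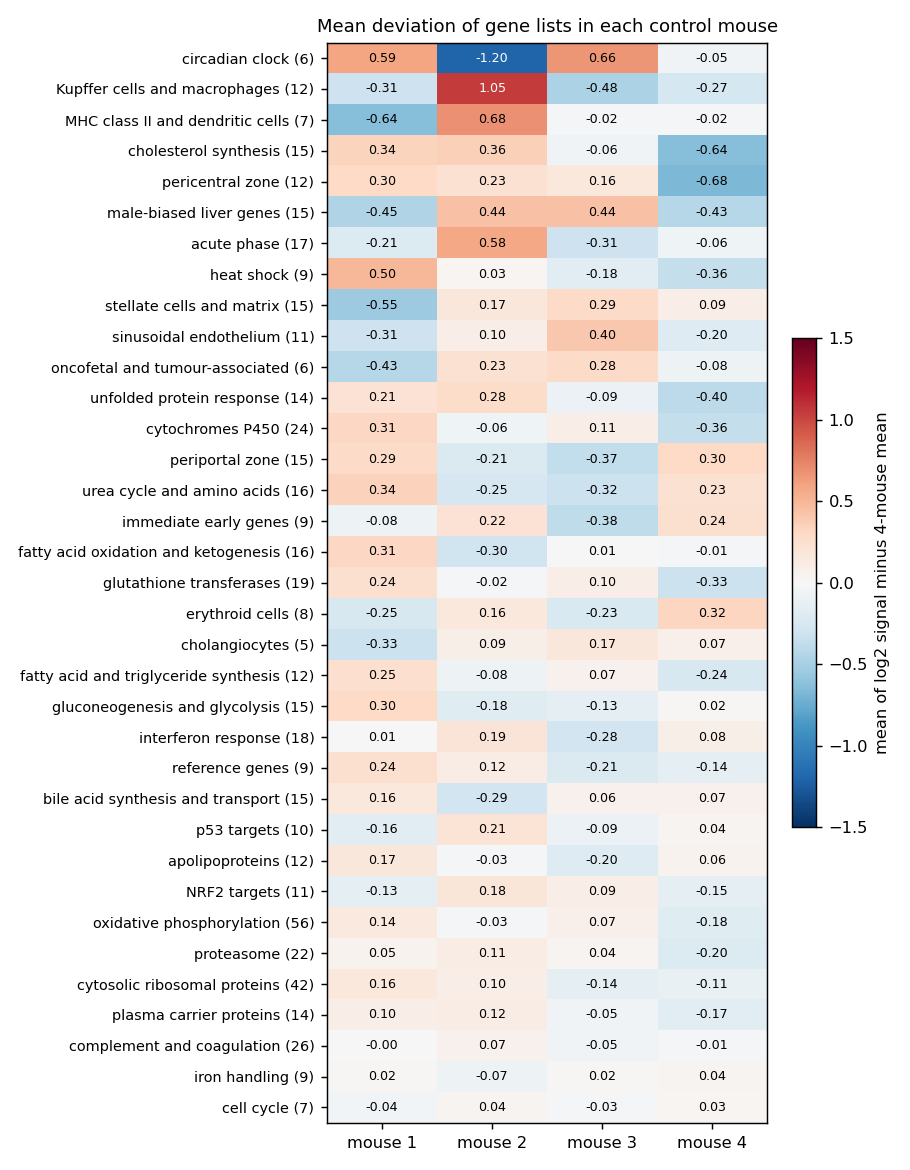
Mean deviation of 35 gene lists (rows, number of included genes in parentheses) in each control mouse (columns), as the mean of log2 signal minus the 4-mouse mean of each gene. The clock list is lowest in mouse 2 (-1.20), the Kupffer cell list highest there (1.05), and the pericentral and cholesterol lists are lowest in mouse 4 (-0.68 and -0.64).

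Genes that were highest in mouse 1 and lowest in mouse 4 included drug metabolism and housekeeping genes. Cyp3a11, the main drug-oxidising P450 of its subfamily, was at 11.26, 9.16, 8.61 and 7.32, a 15.3-fold difference. Akr1c12, an aldo-keto reductase, was at 8.63, 6.76, 6.63 and 4.95, and Ugt3a1, a glycosyltransferase, at 10.07, 8.74, 8.30 and 6.66. Hspa8, the constitutive heat shock protein 70, was at 8.25, 5.85, 5.29 and 5.04, with mouse 1 alone at the top. Idh1, the cytosolic isocitrate dehydrogenase, was at 9.61, 8.85, 8.43 and 7.03, and Car3, a carbonic anhydrase of liver and fat, at 9.71, 9.32, 8.93 and 7.16. Of 24 P450 genes 11 (45.8%) had a range over 1. The mean of the 24 was 0.31 above the 4-mouse mean in mouse 1 and 0.36 below it in mouse 4. Cyp2d10 and Cyp2c70 were nearly even, with ranges of 0.28 and 0.34. Of 19 glutathione transferases 9 (47.4%) had a range over 1, or 5 without mouse 1. Gsto1 was at 10.36, 8.65, 8.94 and 8.42, and Gsta3 between 11.65 and 11.87.

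A few ribosomal and respiratory genes were far higher in mouse 1, and most of their groups were not. Rps2 was at 11.74, 10.64, 9.36 and 9.63, Rps7 at 10.75, 9.74, 8.84 and 8.64, and Rpl7a at 8.03, 5.95, 6.62 and 5.82, all highest in mouse 1. Rps24 and Rpl38 were lowest there, at 10.79, 11.62, 11.94 and 11.93 and at 11.50, 12.19, 12.28 and 12.63. Of 42 ribosomal protein genes 11 had a range over 1 (26.2%), which is near the 21.9% of all included genes, or 3 without mouse 1 and 6 without mouse 4. Rps12 and Rpl12 had ranges of 0.13 and 0.20. Atp5f1, a subunit of ATP synthase, was at 8.50, 6.85, 6.20 and 5.55, highest in mouse 1 and lowest in mouse 4. Of 56 genes of oxidative phosphorylation 9 had a range over 1 (16.1%), or 2 without mouse 1 and 4 without mouse 4, and Cox4i1 stayed between 12.56 and 12.75. Both families have many pseudogene copies, so single members are uncertain.

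Mouse 1 was the lowest for genes of stellate cells, which lie beside the sinusoids and make matrix. Dcn, the matrix proteoglycan decorin, was at 9.14, 10.24, 10.69 and 10.54, Reln, a marker of hepatic stellate cells, at 8.28, 9.53, 10.01 and 9.26, and Bgn, for biglycan, at 9.31, 10.12, 10.58 and 10.28. Mouse 1 was the lowest in 13 of 15 stellate cell and matrix genes. Of the 15, 8 (53.3%) had a range over 1, or 1 without mouse 1 and 5 without mouse 3. Anxa2, an annexin, was at 7.26, 9.39, 8.97 and 8.94, and Tmsb4x, an actin-binding peptide, at 9.35, 11.50, 10.91 and 11.65. Sinusoidal endothelial genes were highest in mouse 3, with Clec4g, a lectin of these cells, at 10.11, 10.11, 10.93 and 9.56 and Dnase1l3, a secreted nuclease, at 6.86, 6.88, 7.72 and 6.28. Of 11 endothelial genes 8 were highest in mouse 3. Of the 11, 5 (45.5%) had a range over 1, or 3 without mouse 1, 1 without mouse 3 and 2 without mouse 4. Stab2, a scavenger receptor, stayed between 8.17 and 8.47. Cd300lg, of endothelium, was also alone at the top in mouse 3, at 5.48, 4.94, 7.05 and 5.64.

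Core metabolic genes were mixed. Of 15 genes of gluconeogenesis and glycolysis 9 (60%) had a range over 1, or 4 without mouse 1. Eno1, for enolase, was at 10.49, 8.83, 8.67 and 8.75, and Slc37a4, the glucose-6-phosphate transporter, at 7.72, 6.46, 7.79 and 7.89. Of 12 genes of fatty acid and triglyceride synthesis 5 (41.7%) had a range over 1, or 3 without mouse 1 or without mouse 4. Thrsp, a lipogenic factor, was at 8.89, 7.59, 9.30 and 7.38, and Scd1, the stearoyl desaturase, between 12.74 and 13.36. Of 15 genes of bile acid synthesis and transport 4 had a range over 1, or 1 without mouse 2 and 2 without mouse 4, led by Cyp7a1. That share of 26.7% is near the 21.9% of all included genes. Of 11 genes induced by NRF2, the regulator of antioxidant enzymes, 2 had a range over 1, or 1 without any one of mice 1, 2 and 3, and Prdx1 had a range of 0.28. Of 22 proteasome genes 4 had a range over 1, or 1 without mouse 1 or without mouse 4, and of 9 heat shock genes 3 had one, with 0 without mouse 1 and 1 without mouse 4. The NRF2 and the proteasome share were both 18.2%, again near that of all included genes, and the heat shock share was 33.3%.

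The spread of a gene among the control mice was set beside its spread among the 9 exposed mice, taken within the dichloroacetic acid and the phenobarbital group and pooled, with no comparison of levels. The median SD was 0.287 in both. Of the 10% of genes with the largest SD in control mice, 265 of 608 (43.6%) were also in the top 10% in exposed mice, where by construction 10.0% of all genes are. Spearman's rho of the SDs across genes was 0.498, given as a description. The 3 groups were normalized together. Of the 30 genes with the largest SD in control mice, 22 were in the top 10% of exposed mice. Hsd3b5 had an SD of 1.94 in control and 1.26 in exposed mice, Saa2 one of 1.88 and 1.23, Akr1c12 one of 1.51 and 1.27, and Lcn2 one of 1.35 and 1.16. These 4 genes were in the top 10% on both sides. Other genes were not. Dbp had an SD of 1.96 against 0.32, Gp9 one of 1.29 against 0.31, and Mmp9 one of 1.20 against 0.18. The difference between the 2 SDs of a gene was not tested.

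Of all included genes 4.36% were in the top 10% on both sides. By list, 7 of 17 acute phase genes were in the top 10% on both sides, as were 6 of 12 Kupffer cell genes, 4 of 15 male-biased genes and 4 of 15 cholesterol genes. Of the 7 MHC class II genes 3 were in the top 10% in control mice and 0 in exposed mice. Of the 11 endothelial genes it was 2 in control and 8 in exposed mice, with 1 in both.

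**Figure D5:**
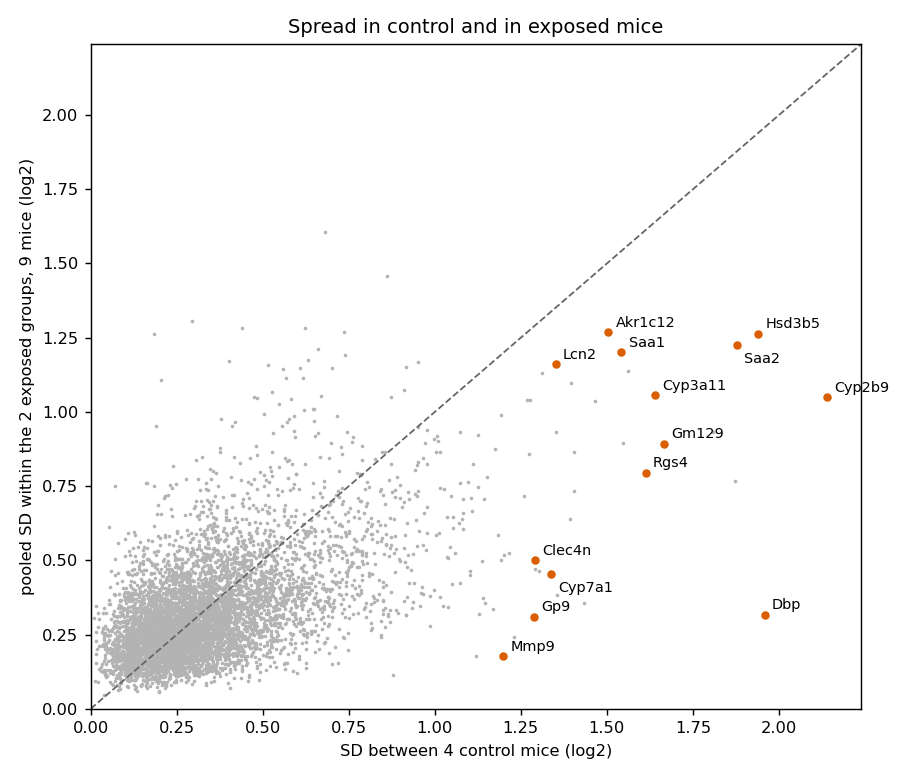
Pooled SD within the 2 exposed groups (vertical axis, 9 mice, log2) against the SD between the 4 control mice (horizontal axis, log2), 1 point per included gene, with named genes in orange and a dashed line where both are equal. Hsd3b5, Saa1, Saa2, Akr1c12 and Lcn2 lie at or above 1.16 on both axes, and Dbp, Gp9 and Mmp9 lie near the bottom at the right.

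Genes that were detected in only some of the control mice add to this picture. Of the 3119, 367 had a range over 1 (11.8%), so that with the 1332 included genes 1699 genes in the table had one. Among them Cyp4a14 had an SD of 2.77, above the 2.14 of Cyp2b9. The detection rule removes genes that are at background in 1 mouse, and so it removes part of the genes that differ most between mice.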

How the data were processed

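Biotin-labelled cRNA from liver RNA of 13 mice was hybridised to Illumina bead arrays, 1 per mouse, and the 4 control arrays are described. The deposited main table gives, per gene and array, an intensity on a linear scale that the authors exported from GenomeStudio, a program named without its version in the submitters' processing notes. Beside it the authors deposited a detection p-value, which in 4470 of 18138 rows had the form of a combination over several probes. The other 13668 rows were treated as single-probe rows. Probe numbers were not known, so some of these rows may also combine several probes. A second table of 18110 genes holds intensity values that the authors normalized by steps not given in the sources used here, and served as an alternative. Background was corrected with limma 3.58.1 in R 4.3.3 by normexp with an offset of 16. The detection p-values of the 13668 rows treated as single-probe were used for it. This was done because the standard fit on all rows gave a background SD of 57.3 to 150 against 4.32 to 12.2. Quantile normalization over all 13 arrays and log2 followed. Group membership came from the labels, animal numbers in the labels mark the arrays as separate mice, and replicate numbers only name them. No test was made, because 1 group was described, and the number of arrays limits the precision.

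The genes, the lists and the rules were chosen with earlier results of these data known. The rule for named genes takes the 20 brightest genes, the 30 with the largest SD, the 15 steadiest above the median signal, up to 4 members per list, up to 8 genes per array and side where 1 array stood alone, and the marker and reference genes, and the text prints part of them. Genes printed outside the rule, to fill out a group, were chosen after their values were seen. Of the gene names 14307 were current symbols of GRCm38.p6, 2976 were synonyms and 855 had no match. Names are those of the table, 22 of which had been turned into dates or numbers and were restored. The procedure was tested on simulated arrays.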

Additional observations from a re-analysis of the deposited data

Results flagged for a closer look

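In each result below 1 of the 4 control mice lay so far from the other 3 that the gap to the nearest of them, divided by the range of all 4, was above Dixon's critical value for 4 samples. Chance gives this in about 1 of 20 groups of 4, and among all included genes it was found for 307 (5.05%), so single genes of this kind are no more frequent here than that. Mouse 2 was the high one for Clec4n, with a ratio of 0.983, and for C1qa, with 0.915. It was the low one for Slc37a4 (0.884) and for Tef (0.831). Mouse 1 was the high one for Eno1 (0.917) and Cps1 (0.875), and mouse 3 the low one for Lbp (0.869).

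Mouse 4 was the high one for Ppbp (0.958), Camp (0.94), Ltf (0.926), Rhbdl2 (0.9), Igf2 (0.9) and Itga2b (0.866), and the low one for Sc4mol (0.848). Of these, Ppbp and Camp were detected in mouse 4 alone, and Ltf, with a detection p-value of 0.101 in mouse 4, was not detected there by the rule. Among 35 lists with at least 5 included genes, the mean deviation of the Kupffer cell and macrophage list had a ratio of 0.862 through mouse 2, and that of the pericentral list one of 0.854 through mouse 4. Values in all 4 mice are given in the report.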

How the results depend on the processing

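The values that moved most were counts with a fixed threshold. Genes with a range over 1 numbered 1332, against 459 without background correction, 784 with the standard fit, 778 with an offset of 50, 3725 under median scaling, 500 in the authors' table, 687 among genes of above-median signal, 4025 with a range over 0.5 and 139 with a range over 2. Leaving out 1 mouse gave 672 to 1163. The 6076 detected genes became 9195 when detection on 1 array sufficed, and 3038 with above-median signal required. The median SD of 0.287 became 0.162 without background correction, 0.163 with the standard fit, 0.523 under median scaling and 0.172 in the authors' table. The other alternatives for these results, for the share of the widest 10% found in exposed mice and for the number of lists whose share of genes with a range over 1 exceeded that of all genes (29 of 35) stayed within 1.5 times. Single lists moved more: over 35 lists, the count of members with a range over 1 moved by over 1.5 times in 103 of 350 alternatives, 80 of them downward, and in 48 of 140 that left out 1 mouse, and the median SD moved in 62 of 350 and 15 of 140. After centring each array, 125 of 179 printed genes kept both their highest and their lowest mouse under all 6 corrections and scalings, and the mice named for the clock, Kupffer cell, acute phase, pericentral and female-biased lists kept theirs, apart from the lowest mouse of the Kupffer cell list under 1 of them. No paired analysis was possible because a single group was described and no test was made.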

Other observations

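Some pairs of mice shared genes that belong to no list used here. Xlr4a, an X-linked lymphocyte-regulated gene, was at 5.70, 8.76, 7.93 and 7.00 in mice 1 to 4, lowest in mouse 1. Lrfn3, a neuronal adhesion protein, was at 6.43, 8.25, 5.63 and 8.62, and thus high in mice 2 and 4, and it was not in the top 10% of spread in exposed mice. EG433923, a predicted gene now named Gm5560, was at 8.54, 6.79, 6.37 and 5.50, and LOC100046918, which has no current symbol, at 8.65, 6.28, 6.00 and 5.50, both highest in mouse 1 and lowest in mouse 4.

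The share of genes with a range over 1 was 22.7% among the 5011 included genes whose detection p-values had the form of a single probe. It was 18.0% among the 1065 whose p-values had the form of a combination over several probes. Probe numbers were not known, and the first set may hold rows that combine several probes.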
